A study of Mus musculus with 6 samples.

Results

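The testis-specific serine kinases are a family of small protein kinases made almost exclusively in male germ cells after meiosis. The 6 mouse genes Tssk1, Tssk2, Tssk3, Tssk4, Tssk5 and Tssk6 were chosen by symbol, and all 6 were found among the 30905 genes of the count tables. They were followed in single-cell RNA-seq of testis from adult ICR mice, an outbred stock, with 3 libraries of a control group and 3 of a group that breathed cigarette smoke. The animals entered the study aged 6 weeks and, after 1 week of adaptation, spent 12 weeks of sessions in a chamber. Smoking sessions lasted 30 minutes a day and burned 15 cigarettes (nicotine 1.1 mg and tar 11 mg each, smoke at 3.47 mg/m3), and controls had the chamber with no smoke. An age of 8 weeks is labelled, which this schedule does not give. No genetic change is labelled in either group, and the left testis was used after depletion of dead cells. The labels give 7 mice per group but tie no library to a mouse, so each p-value reflects the spread among libraries, which may be technical, and whether animals were pooled is unknown here. The comparisons ask in which order the 6 genes are used as spermatids mature, and whether their levels differ after smoke exposure.

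Spermatids are the haploid cells that follow meiosis. Round spermatids build the acrosome and transcribe heavily, and elongating spermatids replace histones with transition proteins and then protamines, while transcription stops and stored messenger RNA is translated later. TSSK1 and TSSK2 bind and phosphorylate the substrate protein TSKS, and male mice that lack both kinases are sterile. TSSK6 is needed for histone replacement and for the changes that let sperm fuse with the egg, and males lacking TSSK3, TSSK4 or TSSK6 have impaired or lost fertility. The co-chaperone TSACC links TSSK kinases to the chaperone HSP90.

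All coordinates are on GRCm38 (mm10), from GENCODE release M21. Tssk1 (ENSMUSG00000041566; chr16:17894223-17897922, plus strand, 1 exon) and Tssk2 (ENSMUSG00000045521; chr16:17898637-17900024, plus strand, 1 exon) are neighbours, with 714 bases between them. Tssk3 (ENSMUSG00000000411; chr4:129489014-129491022, minus strand) has 2 exons. Tssk4 (ENSMUSG00000007591) lies at chr14:55650184-55652539 on the plus strand, Tssk5 (ENSMUSG00000060794) at chr15:76371952-76374938 on the minus strand, and Tssk6 (ENSMUSG00000047654; 1 exon) at chr8:69902184-69903518 on the plus strand. Tssk1 lies inside Dgcr2, a gene of the opposite strand, and shares 63 of its 3700 exon bases with exons of Dgcr2. Tssk6 shares 375 of its 1335 exon bases with exons of Ndufa13, also on the opposite strand. The last 400 bases of both transcripts, nearest to where a 3′ library reads, are shared with no exon of these neighbours; no source used here says whether counting used strand, so these overlaps remain an uncertainty. The coding sequences of Tssk1 and Tssk2 were 81.9% identical over aligned bases and the transcripts shared a run of 113 bases, but within the last 400 bases of each transcript the longest shared run was 8 bases. Every other pair of members was between 61.4% and 67.0% identical in coding sequence.

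Promoter sequence from RefSeq (GRCm38.p6) was matched for 5 of the 6 genes (Tssk1, Tssk2, Tssk3, Tssk4 and Tssk6). The 250 bases before the start are printed for Tssk1 and Tssk2, because these neighbouring genes of related sequence follow different courses in the spermatids described next. Capitals mark the longest run shared by their promoters, GACAGTGCTGA, and the octamer TGACTTCA on either strand, which was chosen after the sequences were compared.
Tssk1, chr16:17893953-17894202, plus strand: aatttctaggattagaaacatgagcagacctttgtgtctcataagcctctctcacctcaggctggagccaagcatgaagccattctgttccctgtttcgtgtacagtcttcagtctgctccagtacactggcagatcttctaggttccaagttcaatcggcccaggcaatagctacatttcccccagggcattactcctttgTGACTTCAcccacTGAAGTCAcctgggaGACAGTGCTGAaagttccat
Tssk2, chr16:17898387-17898636, plus strand: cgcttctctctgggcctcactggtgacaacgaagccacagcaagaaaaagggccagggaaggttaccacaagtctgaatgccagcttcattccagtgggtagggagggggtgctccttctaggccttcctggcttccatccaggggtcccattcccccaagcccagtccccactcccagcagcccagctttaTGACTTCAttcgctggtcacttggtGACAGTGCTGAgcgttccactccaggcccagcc
The shared run of 11 bases begins 20 bases before the RefSeq start of Tssk1, which lies upstream of the GENCODE start given above. It begins 33 bases before the RefSeq start of Tssk2. Over both strands 6 of 32851 promoters of the same length hold it (0.0183%), those of Tssk1 and Tssk2 among them. The run was chosen because this pair shares it, and how often other runs of 11 bases occur was not counted. The octamer occurs 2 times in the Tssk1 promoter, on opposite strands, and 1 time in that of Tssk2, and 1.52% of all promoters hold it. Over the whole window the promoters of the pair were 59.6% identical at aligned bases. That window, and every promoter searched here, also held the 50 bases after the start, which are not printed.

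The promoters of Tssk4, highest in the earliest spermatids, and of Tssk6, highest in the latest, are shown for contrast, with CCAAT and TGACG (the core of the cyclic-AMP response element) in capitals on either strand.
Tssk4, chr14:55649934-55650183, plus strand: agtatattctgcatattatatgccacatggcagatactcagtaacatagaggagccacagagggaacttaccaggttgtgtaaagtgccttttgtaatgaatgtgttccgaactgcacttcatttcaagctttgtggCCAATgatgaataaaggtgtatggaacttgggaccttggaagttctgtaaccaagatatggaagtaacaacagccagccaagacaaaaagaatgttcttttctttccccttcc
Tssk6, chr8:69901934-69902183, plus strand: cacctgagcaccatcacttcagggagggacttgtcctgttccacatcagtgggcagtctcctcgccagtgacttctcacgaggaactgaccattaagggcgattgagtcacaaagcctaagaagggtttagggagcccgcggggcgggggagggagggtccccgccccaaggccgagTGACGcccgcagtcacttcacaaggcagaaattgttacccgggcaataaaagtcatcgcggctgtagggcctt
CCAAT occurs in 37.4% of all promoters, TGACG in 20.8%, the full palindrome TGACGTCA in 1.79% and TATAAA in 13.6%. Of the 5 promoters, those of Tssk3 and Tssk4 held CCAAT, that of Tssk6 held TGACG, and the palindrome and TATAAA were in none of these windows. A match of letters is a description and not evidence of binding.

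The libraries held 8598 to 9976 deposited barcodes and 39607204 to 78455606 unique molecular identifiers (UMIs, each marking 1 captured RNA molecule). After a limit on mitochondrial UMIs and removal of predicted doublets, 47918 of 54253 barcodes were retained. Clusters were named from marker genes as X-like, since no deposited annotation was used, and 48.18% to 59.96% of the barcodes per library stayed unnamed, mostly barcodes of few UMIs. Of 53886 barcode sequences, 365 occurred in at least 2 libraries. Elongating-spermatid-like barcodes held 12.66%, 10.93% and 25.19% of the UMIs in control libraries 1 to 3, and 27.94%, 30.29% and 39.80% in smoking libraries 1 to 3. Control 3 thus stood closer to the smoking libraries than to the other controls, and results that depend on it are given with and without it.

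The stage of each deep cluster was read from a stage index, the log2 ratio of the summed level of elongating over round spermatid markers, in which no Tssk gene takes part; the Tssk genes were also left out of the clustering. It was 1.87 in cluster 20 (round-spermatid-like, 886 barcodes, median 33612 UMIs), 6.28 in cluster 23 (no name, led by Hemgn and Tuba8, 393 barcodes), 7.95 in cluster 19 (elongating-spermatid-like, led by Cstl1, H2al3 and Tnp2, 828 barcodes), 9.07 in cluster 7 (elongating-spermatid-like, led by Tnp1, Tex37 and Prm1, 1685 barcodes) and 9.35 in cluster 22 (elongating-spermatid-like, with Prm2 among its leading genes, 598 barcodes). Levels are given as CPM, the UMIs of a gene per 1000000 UMIs of the same barcodes, a measure that is not scaled by gene length, so each gene is set against its own highest level and not against the other genes.

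Tssk RNA was counted at a low number of UMIs in barcodes outside the spermatid classes as well. Macrophage-, Leydig- and endothelial-like barcodes, which are not germ cells, held 2.64 ± 0.36 UMIs of Tssk6 per barcode (SD over 6 libraries), 1.89 ± 0.37 of Tssk2, 0.894 ± 0.19 of Tssk1, 0.959 ± 0.13 of Tssk3, 0.297 ± 0.094 of Tssk4 and 0.0387 ± 0.039 of Tssk5. Spermatocyte-like barcodes held 2.57 ± 0.27 of Tssk6 and 1.77 ± 0.29 of Tssk2, and spermatogonia-like barcodes 2.62 ± 0.33 and 1.94 ± 0.38. These germ-cell values lay within the spread of the non-germ cells. The spermatocyte-like cluster 27, of median 51124 UMIs, held more, 1.59 ± 0.46 of Tssk1 and 4.03 ± 1.4 of Tssk6 per barcode. The non-germ level was used as the estimate of free RNA in the suspension; no empty droplets were analysed here, so its source was not tested. Cluster 7 held 43.5 ± 12 UMIs of Tssk6 per barcode and cluster 20 held 44.8 ± 8.0 of Tssk1. By that estimate free RNA made up 75.4% to 91.2% of the spermatocyte-like UMIs of 5 members and 55.3% of those of Tssk5 (43.9% of Tssk1 and 58.4% of Tssk6 in cluster 27), but 58.5% of the round-spermatid-like UMIs of Tssk6, 49.0% and 42.8% of the elongating-spermatid-like UMIs of Tssk4 and Tssk5, and at most 13.7% of those of the other 4.

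**Figure D1:**
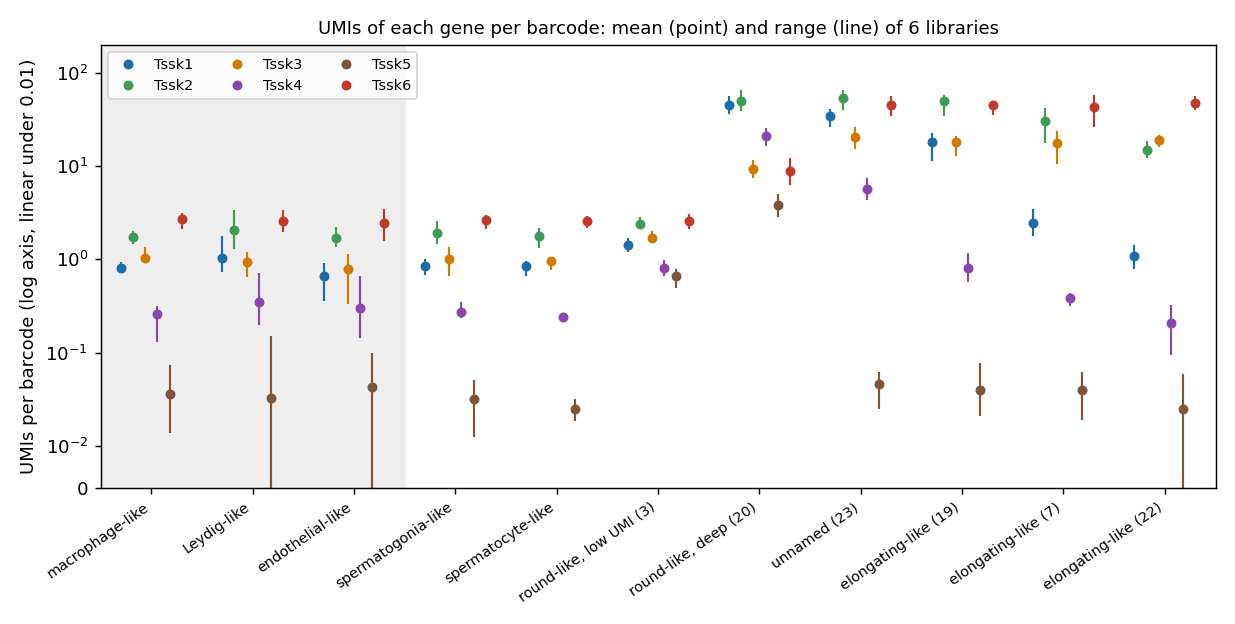
UMIs of each gene per barcode (vertical log axis, linear under 0.01) in non-germ classes (grey), early germ cells and spermatid clusters; points are means and lines the range of 6 libraries. Tssk6 was near 2.6 UMIs in the non-germ, spermatogonia-like and spermatocyte-like barcodes and 43.5 in cluster 7.

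As a share of all UMIs (CPM), the 6 genes followed 4 courses. Tssk4 and Tssk5 were highest in the round spermatids of cluster 20 among the 5 deep clusters and fell before the elongating stages, Tssk1 kept its level longer and then fell, Tssk2 rose to a peak in the middle, and Tssk3 and Tssk6 rose to the last stage among the deep clusters. These are descriptions of the order, with no test. For a finer order that uses no cluster boundaries, the 5153 spermatid barcodes of at least 6000 UMIs were ordered by the same index computed per barcode and cut into 10 bins of 515 or 516, a step chosen after seeing the data. In the thinnest library, bins 7, 9 and 10 held only 19, 14 and 14 barcodes.

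**Figure D2:**
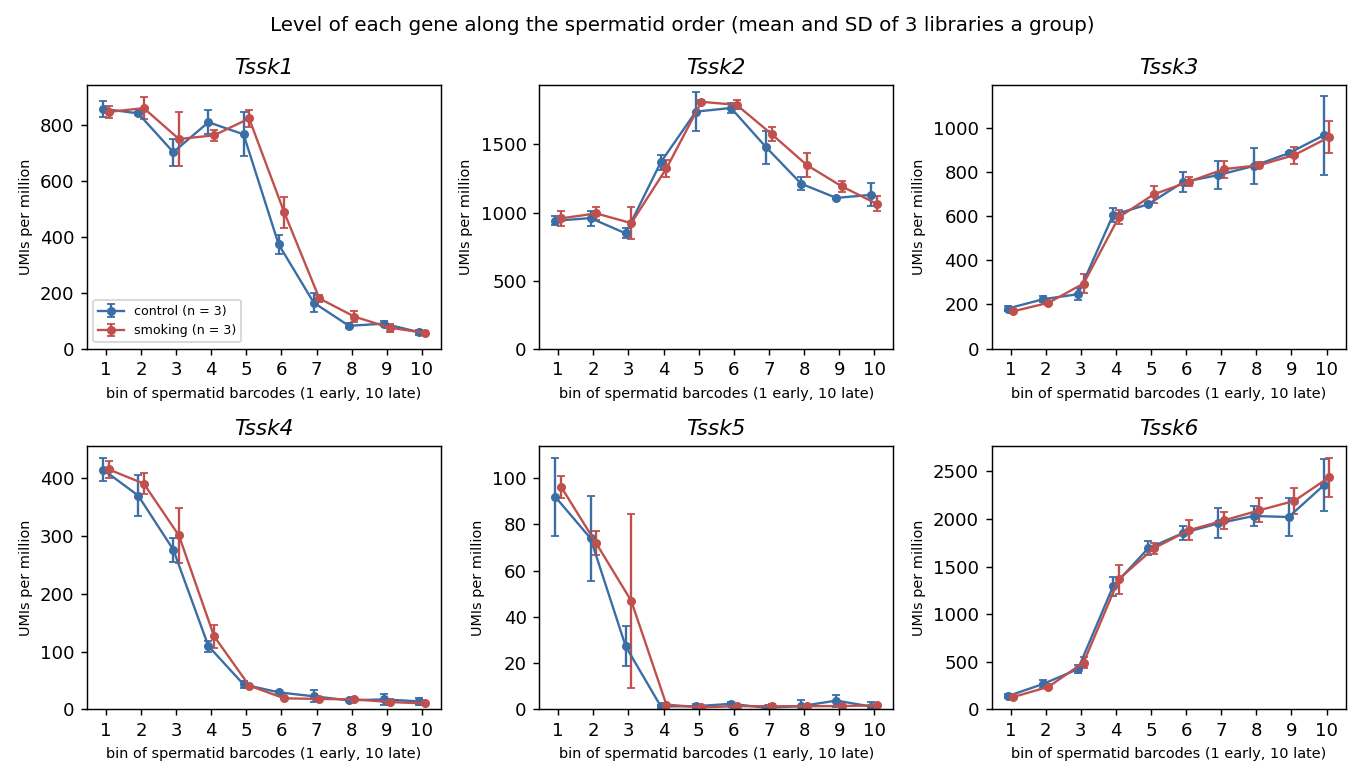
Level of each gene (CPM, vertical axis) in 10 bins of spermatid barcodes from early to late (horizontal axis), as mean and SD of the 3 control and the 3 smoking libraries. Tssk4 and Tssk5 start at their highest level and Tssk3 and Tssk6 end at theirs, with Tssk2 highest in bins 5 and 6.

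Among the deep barcodes, Tssk5 was the earliest to go. Its mean level over 6 libraries was 94.1 ± 11 CPM in bin 1, 72.9 ± 12 in bin 2, 37.1 ± 27 in bin 3 and 1.72 ± 0.59 in bin 4, and bin 1 was the highest in 6 of 6 libraries. By cluster it was 73.3 ± 9.4 CPM in cluster 20 and 1.2 ± 0.37 in cluster 23, so the drop fell between these stages. In clusters 23, 19, 7 and 22 its 0.0251 to 0.0462 UMIs per barcode were within the range of the non-germ cells. Its highest CPM of any cluster was in cluster 3, round-spermatid-like barcodes of median 3032 UMIs, at 187 ± 25 CPM. There it had 0.664 ± 0.099 UMIs per barcode against 3.88 ± 0.86 in cluster 20. The stage index was 3.27 in cluster 3 and 1.87 in cluster 20. By the index alone, the fall of Tssk5 CPM after cluster 20 did not hold for cluster 3. The part of free RNA in the index of cluster 3 was not tested.

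Tssk4, the kinase linked to flagellar structure through the outer dense fibre protein ODF2, fell next. It was 415 ± 16 CPM in bin 1, 288 ± 36 in bin 3, 118 ± 17 in bin 4 and 12.1 ± 4.1 in bin 10 (2.93% of its maximum), with bin 1 the highest in 6 of 6 libraries. In cluster 20 the 3 control libraries had 367, 422 and 381 CPM and the 3 smoking libraries 422, 382 and 402. Cluster 23 stood lower, at 126 to 194 CPM over the 6 libraries, and cluster 19 lower again, at 23 to 39.5. None of these 3 ranges overlapped.

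Tssk1 fell later. It was 853 ± 23 CPM in bin 1, 727 ± 74 in bin 3 (85.2% of its maximum) and 796 ± 62 in bin 5 (93.3% of its maximum), then 431 ± 75 in bin 6, 172 ± 24 in bin 7 and 57.9 ± 6.7 in bin 10 (6.79%). The highest bin was the first in 3 libraries and the second in the other 3, which the spread of these bins does not separate. By cluster, 847 ± 33 CPM in cluster 20 and 893 ± 14 in cluster 23 overlapped in range, cluster 19 followed at 694 ± 67, and clusters 7 and 22 were at 110 ± 12 and 66.1 ± 17.

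Tssk2, its neighbour on the chromosome, took another course. It was 948 ± 43 CPM in bin 1, rose to 1777 ± 99 in bin 5 and 1779 ± 33 in bin 6, and returned to 1097 ± 74 in bin 10 (61.7%). The highest bin was bin 5 in 4 libraries and bin 6 in 2, and these bins did not differ beyond their spread. In cluster 19, its highest cluster, the control libraries had 1964, 1814 and 1962 CPM and the smoking libraries 1938, 1957 and 1908, all above every library of cluster 23 (1341 to 1462 CPM) and of cluster 7 (1278 to 1399 CPM). Clusters 20 and 22, at 943 ± 56 and 906 ± 46 CPM, overlapped. Between bins 5 and 10 the level of Tssk1 went from 93.3% to 6.79% of its maximum and that of Tssk2 from 99.9% to 61.7%.

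Tssk3 and Tssk6 rose late and together. Tssk3 went from 175 ± 12 CPM in bin 1 to 271 ± 43 in bin 3, 600 ± 29 in bin 4 and 961 ± 122 in bin 10, and its highest bin was bin 10 in 4 libraries and bins 8 and 9 in 1 each. Tssk6 went from 135 ± 19 CPM in bin 1 to 458 ± 57 in bin 3, 1329 ± 122 in bin 4 and 2396 ± 220 in bin 10, with bin 10 the highest in 5 libraries and bin 9 in 1. Across the same step Tssk4 went from 69.6% to 28.5% of its maximum and Tssk5 from 39.5% to 1.82%. The median stage index went from 3.02 in bin 3 to 6.59 in bin 4, the widest gap between neighbouring bins, and bin 3 drew 241 of its 515 barcodes from cluster 8. In cluster 22 Tssk6 reached 3091, 2687 and 2758 CPM in the control libraries and 2972, 2833 and 2989 in the smoking libraries, above every library of clusters 20, 23, 19 and 7. Cluster 22 held only 9 barcodes in control 2. Tssk3 was likewise highest there among the deep clusters, at 1140 ± 61 CPM, against 787 ± 16 in cluster 7 and 175 ± 5.9 in cluster 20. Tssk6 in cluster 20, at 8.80 ± 2.2 UMIs per barcode, was above the non-germ level, with 26.7% of it expected from free RNA. By the index alone, the order among deep clusters did not hold for cluster 16. It held elongating-spermatid-like barcodes of median 2566 UMIs, with a stage index of 7.20, between those of clusters 23 and 19. Its levels were the highest of these clusters for both genes. Tssk3 was at 1281 ± 433 CPM over 6 libraries, and Tssk6 at 3613 ± 1353 CPM for the control group and 5795 ± 1962 for the smoking group (SD, n = 3 each). Macrophage- and endothelial-like barcodes, which are not spermatids, had an index of 6.08 and 6.23. The stage of cluster 16 is therefore uncertain, and the part of free RNA in its index was not tested.

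**Figure D3:**
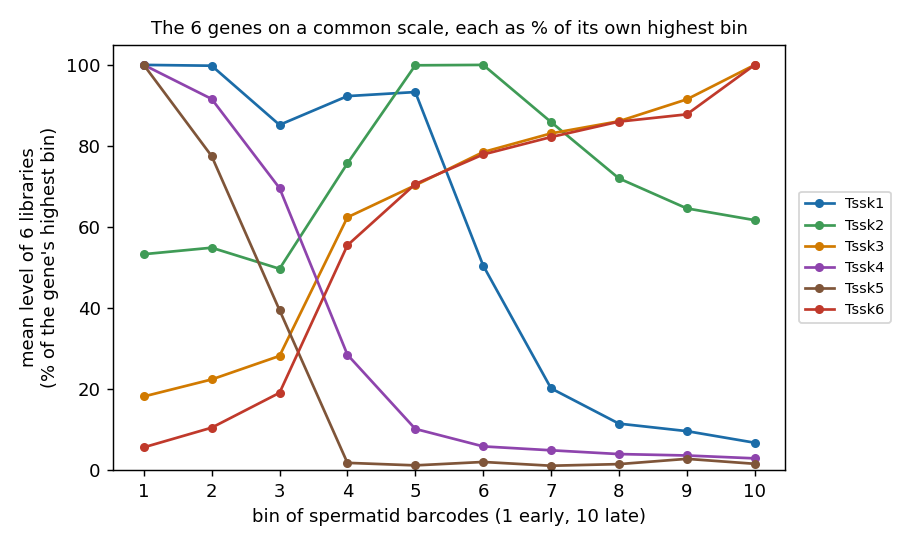
Mean level over 6 libraries in each of the 10 bins (horizontal axis) as a percentage of the gene's own highest bin (vertical axis). At bin 4 Tssk5 is at 1.82% and Tssk4 at 28.5% of maximum, while Tssk3 is at 62.4% and Tssk6 at 55.5%.

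Summed over the named classes, the log2 level in elongating- over round-spermatid-like barcodes (log2 of CPM plus 1) was -4.88 for Tssk5, -3.58 for Tssk4, -1.27 for Tssk1, 0.73 for Tssk2, 1.47 for Tssk3 and 2.32 for Tssk6. Each kept its sign when any library was left out, when expected free RNA was subtracted and among barcodes of at least 6000 UMIs. The size moved with free RNA for the genes it touches most: after subtraction the values were -4.84 for Tssk4, -5.46 for Tssk5 and 3.25 for Tssk6.

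Members were counted together within single barcodes at the early stage, but after thinning Tssk6 no more often than in Leydig-like barcodes. With each barcode thinned to 10000 UMIs, all 6 had a UMI in 31.2% of 869 barcodes of cluster 20 (81.8% unthinned, median 33871 UMIs), in 1.72% of 348 of cluster 23 and in 0.382% of 785 of cluster 19. In cluster 30, Leydig-like barcodes of median 16904 UMIs that should lack these genes, the share was 0% of 150, which allows up to 2%, so the values of clusters 23 and 19 are no higher than this limit. Tssk1, Tssk2 and Tssk4 were seen in 99.7%, 99.4% and 97.0% of the thinned barcodes of cluster 20, against 38.0%, 61.3% and 16.7% in cluster 30. Tssk3 and Tssk5 were seen in 82.6% and 52.0%, against 34.0% and 2.67%. Tssk6 was seen in 73.2% of cluster 20 and 74.7% of cluster 30. Unthinned, Tssk6 was seen in 97.0% of cluster 20 and 88.0% of cluster 30. Thinning takes a larger part of the UMIs, free RNA included, from the deeper barcodes of cluster 20. The shares therefore do not decide whether Tssk6 overlapped with the others in cluster 20. Its mean UMIs per barcode there were above the non-germ level, as given above. In cluster 22 Tssk2, Tssk3 and Tssk6 had a UMI in all 515 thinned barcodes, and Tssk1, Tssk4 and Tssk5 in 43.7%, 10.49% and 1.94%, close to the 38.0%, 16.7% and 2.67% of cluster 30. These intervals and limits cover counting error only.

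Other genes followed the same courses. For each member the 3 genes of most similar level were taken by Pearson's r of log2(CPM + 1) over 26 clusters, among 14715 genes; the clusters share libraries and free RNA, so r is a description. For Tssk1 they were Odf3 (r = 0.958), Tbata (0.949) and Gm31752 (0.947), and for Tssk2 they were Morn3 (0.981), Fam46c (0.977) and Lrrc18 (0.974). Sox5 (0.981), Odf3l1 (0.980) and Mmel1 (0.975) were nearest to Tssk4, and 1700021F02Rik (0.954), Gm6117 (0.944) and Gm6598 (0.938) to Tssk5. The nearest to Tssk3 were 2810408A11Rik (0.959), Fam187b (0.951) and Wbscr25 (0.951), and to Tssk6 1700012A03Rik (0.993), Lrrc57 (0.986) and Ppp2r2b (0.984). No member was among the nearest 3 of another.

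Genes that work with the kinases had their own order. Tsks, the substrate of TSSK1 and TSSK2, was 533 ± 33 CPM in cluster 20, 1141 ± 68 in cluster 23, 1292 ± 57 in cluster 19 and 914 ± 61 in cluster 22, a course with its peak in the same cluster as Tssk2. Tsacc, the co-chaperone, rose from 651 ± 19 CPM in cluster 20 to 1647 ± 65 in cluster 19 and 1647 ± 53 in cluster 7. Odf2, a component of the outer dense fibres, rose from 2175 ± 19 CPM in cluster 20 to 7395 ± 223 in cluster 22. Hsp90aa1, the chaperone, fell instead, from 1771 ± 78 CPM in cluster 20 to 192 ± 34 in cluster 19, as did Crem, a transcription factor of round spermatids, from 553 ± 24 to 54.2 ± 7.0. Pdpk1, a kinase that can phosphorylate TSSK3, was highest in cluster 23 at 384 ± 29 CPM.

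After smoke exposure no member passed edgeR's quasi-likelihood test (adjusted p under 0.05 over all genes tested) in any class or cluster. Over elongating-spermatid-like barcodes 0 of 6 were called, beside 0.101% of the 10912 genes tested. An unadjusted p under 0.05 was found for 4 of 6, beside 22.2% of all genes. DESeq2 called 3 (Tssk2, Tssk3 and Tssk6, higher), with 605 of all genes, and limma-voom called 0. Here the scaling matters, because edgeR's scaling factors differed between the groups by 0.25 on the log2 scale. The median log2 fold over all genes was -0.05 by edgeR and -0.23 on plain CPM. The fold of Tssk5 was -0.31 both ways. Plain folds used log2 of CPM plus 1, which shrinks folds at levels as low as its means of 2.17 CPM in controls and 1.57 after smoke. Fitted folds are therefore relative to the bulk of genes.

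Tssk4 had the lowest adjusted p of the class. Its level was 35.2, 39.3 and 25.0 CPM in control libraries 1 to 3 and 21.7, 17.9 and 19.4 CPM in smoking libraries 1 to 3. The groups did not overlap, as for 32% of all genes tested, and the log2 fold of smoking over control was -0.48 (SE 0.14; edgeR adjusted p = 0.123). About 49.0% of these UMIs were expected from free RNA, and after its subtraction the fold was -0.14 (edgeR adjusted p = 0.96). Within cluster 7 the fold was -0.44 (SE 0.20; edgeR adjusted p = 0.289) and within cluster 19 it was -0.28 (SE 0.15; edgeR adjusted p = 0.78).

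Tssk6 was 1994, 2008 and 2166 CPM in the control libraries and 2056, 2086 and 2363 CPM in the smoking libraries, which overlapped, with a log2 fold of 0.32 (SE 0.13; edgeR adjusted p = 0.185). Tssk3 had 772, 763 and 855 CPM in controls and 824, 823 and 881 CPM in smoking libraries, and its fold was 0.32 (SE 0.12; edgeR adjusted p = 0.172). Tssk2, at 1468, 1374 and 1436 CPM against 1462, 1487 and 1405, had a fold of 0.27 (SE 0.12; edgeR adjusted p = 0.198). On plain CPM these folds were 0.07, 0.08 and 0.02. Tssk1 had 365, 279 and 288 CPM against 290, 248 and 261, with a fold of 0.03 (SE 0.12; edgeR adjusted p = 0.917) that was -0.21 on plain CPM. Tssk5 had 8 to 36 UMIs per library, and its CPM of 1.99, 2.15 and 2.36 against 1.5, 1.88 and 1.34 did not overlap between groups (log2 fold -0.31, SE 0.30; edgeR adjusted p = 0.557).

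Among edgeR fits that left out 1 library, members of this class were called only without control 3. Without it, edgeR called Tssk2 (log2 fold 0.38), Tssk3 (0.48), Tssk4 (-0.57) and Tssk6 (0.46), but also 2511 of all genes, against 11 with all libraries. The makeup of the class differed between libraries as well: late cluster 22 had 21, 9 and 105 barcodes in control libraries 1 to 3 and 68, 98 and 297 in smoking libraries 1 to 3, and middle cluster 19 had 55, 52 and 144 against 141, 150 and 286. The part of this makeup in the class folds was not tested beyond the values within clusters.

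**Figure D4:**
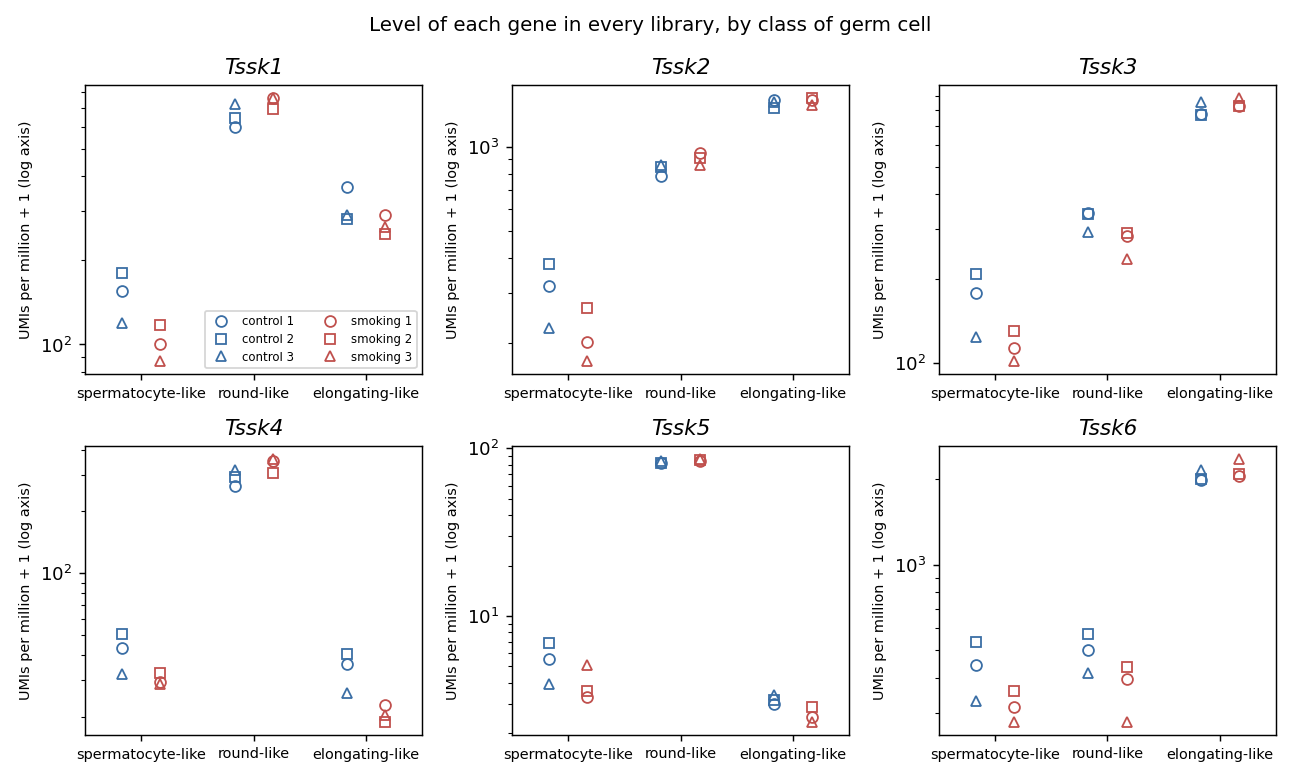
Level of each gene (CPM plus 1, log axis) in each of the 6 libraries, by class of germ cell (horizontal axis); blue marks are control and red marks smoking libraries, and the shape gives the library number. In spermatocyte-like barcodes all 6 genes have a lower mean in smoking libraries, while in the spermatid classes the direction differs by gene.

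Single clusters were tested in the same way. In cluster 20, 0 of 6 members were called (0.00859% of 11645 genes tested), 0 had an unadjusted p under 0.05 (4.71% of genes), and no member's groups were free of overlap (9.81% of genes). The folds ran from -0.09 to 0.18 and the lowest edgeR adjusted p was 0.988. In cluster 23, 5 members were tested and 0 were called (0% of 7917 genes), 0 had an unadjusted p under 0.05 (3.07%) and 0 had groups without overlap (8.37%), with folds from 0.05 to 0.15 and an edgeR adjusted p of 1. In cluster 19, 0 of 5 were called (0.0273% of 7338) and 0 had an unadjusted p under 0.05 (6.85%), with folds from -0.28 to 0.12. In cluster 16, of few UMIs, 0 of 5 were called (0% of 5043), and Tssk6 had the largest fold, 0.95 (SE 0.43; edgeR adjusted p = 0.526), with overlapping groups. In cluster 7, 0 of 6 were called (0.116% of 8586), and 3 of 6 had an unadjusted p under 0.05 (16.3% of all genes). There Tssk2 had 1278, 1295 and 1289 CPM in controls against 1341, 1399 and 1322 in smoking libraries; the fold was 0.22 (SE 0.07; edgeR adjusted p = 0.204). Groups did not overlap for 2 of 6 members of cluster 7, Tssk2 and Tssk4 (fold -0.44), beside 23.9% of genes. The largest fold there was that of Tssk5, -0.58 (SE 0.39; edgeR adjusted p = 0.46), from 3 to 19 UMIs per library. In cluster 7 edgeR's scaling factors differed between the groups by 0.15 on the log2 scale. The median log2 fold over all genes of cluster 7 was -0.03 by edgeR and -0.14 on plain CPM. On plain CPM the folds of Tssk1 and Tssk3 there, 0.03 and 0.14 by edgeR, were -0.12 and -0.0033. Without control 3, Tssk2 (0.29), Tssk3 (0.24) and Tssk6 (0.27) were called in cluster 7, with 821 of all genes.

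**Figure D5:**
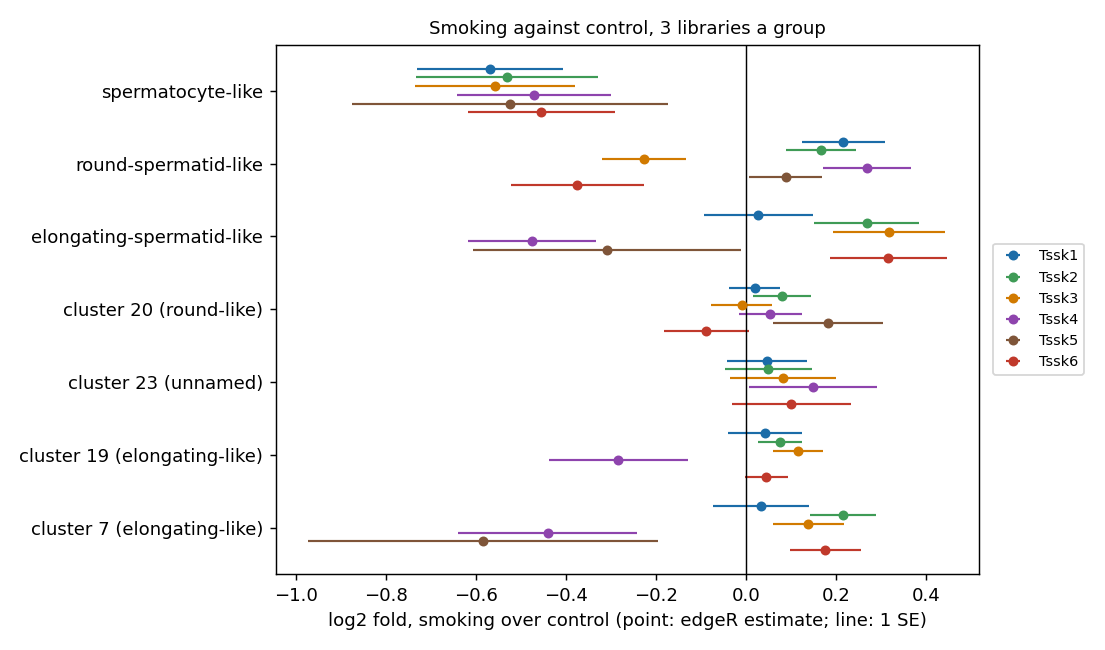
Log2 fold of smoking over control (horizontal axis; edgeR estimate with 1 SE) for each gene in 3 classes and 4 clusters, with 3 libraries a group. Estimates in clusters 20 and 23 lie between -0.09 and 0.18, and those of the spermatocyte-like class between -0.57 and -0.45; none passed the adjusted test.

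Over round-spermatid-like barcodes 0 of 6 members were called by edgeR, as 0% of 13965 genes were, and 0 by DESeq2 or limma-voom; 4 of 6 had an unadjusted p under 0.05, beside 14.1% of all genes. Tssk6 had 500, 570 and 415 CPM in control libraries and 396, 435 and 279 CPM in smoking libraries, and the groups overlapped (log2 fold -0.37, SE 0.15; edgeR adjusted p = 0.332). Tssk4 went the other way, with 265, 292 and 316 CPM against 352, 308 and 360 (0.27, SE 0.10; edgeR adjusted p = 0.323). The groups did not overlap for 2 of 6 members, Tssk2 and Tssk3, beside 19.6% of genes, with folds of 0.17 and -0.23. Among barcodes of at least 6000 UMIs the folds of Tssk6 and Tssk4 were -0.05 and 0.10. The makeup of this class also differed: deep cluster 20 had 77, 57 and 187 barcodes in control libraries 1 to 3 and 159, 104 and 302 in smoking libraries 1 to 3. Control means of Tssk6 were 170 CPM in cluster 20 and 762 in cluster 3, and those of Tssk4 were 390 and 212. The part of this makeup in the class folds was not tested. Of the round clusters of few UMIs, cluster 8, led by acrosomal genes such as Spaca1 and Zp3r, had the largest member fold, Tssk1 with 574 ± 95 CPM for controls against 724 ± 51 after smoke (SD, n = 3 each; log2 fold 0.34, SE 0.10; edgeR adjusted p = 0.0959). There 0 of 6 members were called, beside 0.585% of 8028 genes, and 4 of 6 had an unadjusted p under 0.05, beside 18.3%. Without control 3 Tssk1 was called with a fold of 0.48, with 257 of all genes in place of 47. Cluster 3 gave 0 of 6 calls (0.0715% of 9793 genes), with 1 of 6 at an unadjusted p under 0.05 (9.91% of genes) and a lowest edgeR adjusted p of 0.502. Cluster 9 also gave 0 of 6 calls (0.034% of 8834 genes), with 0 of 6 at an unadjusted p under 0.05 (7.39% of genes) and 0 of 6 whose groups did not overlap (12.9% of genes).

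In spermatocyte-like barcodes the mean of each of the 6 members was lower in smoking libraries, with log2 folds from -0.57 to -0.45 and a median of -0.53, against -0.02 over all 11989 genes tested, of which 53.3% had a fold below 0. edgeR called 0 of 6, beside 0.00834% of genes, and DESeq2 and limma-voom called 0; 5 of 6 had an unadjusted p under 0.05, beside 14.9% of genes. Tssk1 had 154, 179 and 118 CPM in controls against 99.6, 117 and 86.3 in smoking libraries. Its groups did not overlap, as for 17.3% of genes, and the fold was -0.57 (SE 0.16; edgeR adjusted p = 0.294). Most of these UMIs were at the level of free RNA, as given above, and the summed elongating-spermatid marker level in the same barcodes ranged from 28990 to 52510 CPM in controls and from 23760 to 36300 in smoking libraries. After subtraction of expected free RNA the folds ran from -2.53 to 1.70, with no call (lowest edgeR adjusted p 0.986). The class held 4659322, 3916416 and 5850909 UMIs from 862, 786 and 712 barcodes of control libraries 1 to 3. Smoking libraries 1 to 3 had 6176120, 5410874 and 5815753 UMIs from 750, 658 and 754 barcodes. Of these, deep cluster 27 gave 1774565, 995224 and 2789519 UMIs in controls and 2899911, 1931076 and 2934111 in smoking libraries. The part of depth and makeup in the class folds was not tested. Without control 3, Tssk1 (-0.73), Tssk2 (-0.72), Tssk3 (-0.75), Tssk4 (-0.65) and Tssk6 (-0.63) were called, with 870 of all genes.

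The difference of the smoke effect between elongating- and round-spermatid-like barcodes was tested with limma, on the log2 CPM of one class minus that of the other in each library, and 0 of 10679 genes were called. For the members the largest differences were -0.74 for Tssk4 (SE 0.19; limma adjusted p = 0.332) and 0.73 for Tssk6 (SE 0.30; limma adjusted p = 0.335). The makeup of both classes differed between libraries, as given above, and its part in these differences was not tested. Over all retained barcodes, fewer cells of a type and less RNA per cell cannot be told apart. There edgeR called 0 of 6 members (0% of 18855 genes). DESeq2 called 2 (Tssk2, 0.42, and Tssk6, 0.46), with 414 of all genes, and the edgeR folds were 0.39 and 0.43.

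The 11 genes chosen as partners, activators and substrates and 10 other kinases of male germ cells gave 0 calls in each of the 3 classes and in the clusters tested. The lowest edgeR adjusted p was 0.0615, for Hsp90aa1 in cluster 8, with 2269 ± 212 CPM for controls against 1833 ± 60 after smoke (SD, n = 3 each; log2 fold -0.28, SE 0.07). Hsp90aa1 in elongating-spermatid-like barcodes had 382 ± 117 CPM for controls against 208 ± 9.1 after smoke (SD, n = 3 each; log2 fold -0.60, SE 0.14; edgeR adjusted p = 0.1). The median fold in the elongating class was -0.03 for the 11 partners and -0.15 for the 10 kinases, against -0.05 for all genes and 0.15 for the 6 Tssk genes. Tsks had a fold of 0.23 (SE 0.12; edgeR adjusted p = 0.261) and Tsacc 0.34 (SE 0.12; edgeR adjusted p = 0.152) there.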

How the data were processed

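The deposited matrices hold raw UMI counts per gene and barcode, per the file headers written by Cell Ranger 3.1.0; the submitters' processing notes list CASAVA 1.8, mm10 and Cell Ranger 7.1.0, and which version made these counts is not settled. Per the labels, libraries used 10x Genomics 3′ chemistry. The 6 genes, the gene lists and the tests were chosen with earlier results of these data known.

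Barcodes with over 20% mitochondrial UMIs (2459) and predicted doublets (0.8% per 1000 barcodes, 3935) were removed; no barcode had fewer than 1554 UMIs. Leiden clustering at resolution 1 used 2000 variable genes without the Tssk genes, 30 components and 20 neighbours (leidenalg 0.10.2), giving 33 clusters. Clusters were named where 3 or more markers of a type reached a log2 fold of 1 and were seen in 20% of barcodes; where a second type also had 3 or more, the first needed at least 2 times as many. Cluster 18 (979 barcodes) failed this, and its barcodes took the names of their clusters at resolution 2, so spermatogonia-like and some spermatocyte-like barcodes come from it. Resolution 2 was also an alternative for all barcodes. The stage index and bins used these markers. All 6 members are named in the text, with the 3 genes of most similar pattern each (at least 10 CPM in a cluster) and the listed partners.

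Counts were summed per library and class, or per cluster with at least 20 barcodes in every library, and tested with edgeR 4.0.16 (TMM, filterByExpr, quasi-likelihood, Benjamini-Hochberg), with DESeq2 1.42.0 and limma 3.58.1 as alternatives. The edgeR step was tested on simulated data. Expected free RNA is the lowest mean UMI number per barcode among macrophage-, Leydig- and endothelial-like barcodes of the same library. Library totals limit precision for Tssk5 most.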

Additional observations from a re-analysis of the deposited data

How the results depend on the processing

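Of 668 alternative folds of single members, 645 stayed on their side of the threshold, 23 became calls and 0 called values changed sign. Those 23 came from leaving out control 3 (13), DESeq2 (5) and no filter on low counts (5). Without the filter edgeR called Tssk1, Tssk2, Tssk3 and Tssk6 in spermatocyte-like barcodes (-0.54, -0.50, -0.52 and -0.42) and Tssk6 in round-spermatid-like barcodes (-0.36). In these classes it then called 756 and 425 of all genes.

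Over all genes, edgeR called 1 in spermatocyte-like barcodes, and the count was 0 with free RNA subtracted, with limma-voom, without the mitochondrial limit and among barcodes of at least 6000 UMIs, 2 with doublets kept, 53 with DESeq2, 756 without the filter and 0 to 870 when 1 library was left out. In round-spermatid-like barcodes the count of 0 became 47 with DESeq2, 425 without the filter, 1 at 6000 UMIs and 0 to 9 when 1 library was left out. In elongating-spermatid-like barcodes the count of 11 became 0 with free RNA subtracted, 605 with DESeq2, 6 with limma-voom, 391 without the filter, 5 at 6000 UMIs and 1 to 2511 when 1 library was left out. Over all barcodes the count of 0 became 414 with DESeq2, 1 without the filter and 0 to 7 when 1 library was left out. The highest counts of 870 and 2511 were without control 3. The elongating over round log2 level moved to 1.94 for Tssk3 and 3.12 for Tssk6 at 6000 UMIs, to -4.84 for Tssk4, -5.46 for Tssk5 and 3.25 for Tssk6 with free RNA subtracted, and to -2.97 for Tssk5 with a pseudocount of 10. The cause was not tested. The limit of 6000 UMIs, the bins, the test of cluster 23 and the leave-one-out and free RNA fits within clusters were chosen after seeing the data.

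No paired analysis was possible because the labels tie no control library to a smoking library. Depth limits Tssk5 most: it was not tested in clusters 16, 19 and 23.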
